A study of Mus musculus with 7 samples.

Results

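The 10 genes described here are the growth factor gene Igf1, the receptor genes Igf1r and Igf2r, the genes of 5 IGF binding proteins (Igfbp3, Igfbp4, Igfbp5, Igfbp6 and Igfbp7) and the genes of a pair of RNA-binding IMP proteins (Igf2bp2 and Igf2bp3). They were found by symbol among the 32285 genes of the feature table, where each of the 10 symbols stood once. The study sequenced single cells from infarcted and sham-operated mouse hearts in 7 libraries of 6 groups. These were P1 hearts of mice labelled MerTK KO after myocardial infarction (MI) and after sham surgery, 8 week wild-type (WT) hearts after MI and after sham surgery, and P1 WT hearts after MI (2 libraries) and after sham surgery. P1 is postnatal day 1, and wild-type mice were C57BL6/J. Every library came from digested tissue that had been cleared of red and dying cells and in which CD45+ leukocytes were enriched and then mixed with the remaining cells. The labels do not give the time between surgery and dissection, the hearts pooled in each library or the deleted part of Mertk. Each value below is the summed UMI count (unique molecular identifiers, 1 per captured transcript) of a gene in the cells of a class, scaled to the UMIs of that class in that library and written as CPM (counts per 1e+06).

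IGF1 is a secreted peptide that signals for growth and survival through the receptor tyrosine kinase IGF1R, while IGF2R, the cation-independent mannose 6-phosphate receptor, takes IGF2 up for degradation. The IGF binding proteins hold IGFs in the extracellular space and govern how much reaches the receptor; IGFBP7 differs from the others in its low affinity for IGFs. The IMP proteins bind messenger RNAs, among them that of Igf2, and are known mostly from foetal tissue; IMP2, the product of Igf2bp2, persists more widely in adults than IMP3, the product of Igf2bp3.

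The groups of cells were made from clusters that were computed without the 10 genes, and were called macrophage-like, fibroblast-like, endothelial-like and mural-like (pericytes and smooth muscle) from their markers; they are written macrophages, fibroblasts, endothelium and mural cells below. The macrophage class held 209 cells of the library labelled Mertk KO P1 MI, 140 of that labelled Mertk KO P1 sham, 2539 of WT 8 week MI, 112 of WT 8 week sham, 79 and 665 of WT P1 MI and 240 of WT P1 sham. Fibroblasts numbered 163 to 2917 and endothelial cells 60 to 2691 per library, the 60 being those of WT 8 week MI, with 123971 UMIs in all. Mural cells reached the minimum of 20 in 4 libraries only. The kept cells had a median of 2142 UMIs in WT 8 week MI and 3565.5 in WT 8 week sham, against 4612.5 to 11416.5 in the 5 P1 libraries, and pairs of libraries shared 0 to 47 cell barcodes. Mertk itself stood at 17.9 and 47.8 CPM in macrophages of the libraries labelled Mertk KO P1 MI and sham, against 26.2 to 48.8 in the 5 WT libraries. These ranges overlap; the reads tag the 3' end and the deleted part is not given, so this count does not check the label. Xist, the transcript of the inactive X, stood at 0 and 0.038 CPM in the 8 week MI and sham libraries, against 46.8 and 765 in the libraries labelled Mertk KO P1 MI and sham and 342 to 936 in the WT P1 libraries, so that age and the mix of sexes cannot be told apart, nor MI and the mix of sexes within the pair labelled Mertk KO.

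For 4 of the genes on which the results turn, the 250 bases before the RefSeq gene start are shown to give their sequence context (mouse build GRCm38.p6, 5′ to 3′ on the gene's own strand). They belong to the ligand, its receptor, a binding protein that was lower in 8 week MI than in P1 MI fibroblasts and an IMP gene that was lower in macrophages and fibroblasts. They lie at chr10:87860861-87861110 for Igf1 (plus strand), chr7:67952007-67952256 for Igf1r (plus strand), chr5:77408046-77408295 for Igfbp7 (minus strand) and chr6:49214955-49215204 for Igf2bp3 (minus strand). Capitals mark the motif CACGTG.
Igf1: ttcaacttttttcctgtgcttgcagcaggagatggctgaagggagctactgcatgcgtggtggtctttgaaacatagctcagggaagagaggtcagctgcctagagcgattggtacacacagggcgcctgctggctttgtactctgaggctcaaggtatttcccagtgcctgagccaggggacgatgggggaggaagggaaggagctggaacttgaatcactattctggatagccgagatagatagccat
Igf1r: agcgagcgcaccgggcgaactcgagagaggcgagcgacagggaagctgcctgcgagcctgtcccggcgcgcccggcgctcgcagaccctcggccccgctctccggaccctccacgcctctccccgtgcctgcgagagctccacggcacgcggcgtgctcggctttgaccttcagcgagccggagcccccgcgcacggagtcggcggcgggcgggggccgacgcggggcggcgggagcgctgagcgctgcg
Igfbp7: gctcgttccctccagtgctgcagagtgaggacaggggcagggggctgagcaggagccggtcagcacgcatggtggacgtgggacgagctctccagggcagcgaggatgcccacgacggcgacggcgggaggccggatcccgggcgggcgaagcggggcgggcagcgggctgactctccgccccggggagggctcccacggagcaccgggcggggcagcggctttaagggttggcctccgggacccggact
Igf2bp3: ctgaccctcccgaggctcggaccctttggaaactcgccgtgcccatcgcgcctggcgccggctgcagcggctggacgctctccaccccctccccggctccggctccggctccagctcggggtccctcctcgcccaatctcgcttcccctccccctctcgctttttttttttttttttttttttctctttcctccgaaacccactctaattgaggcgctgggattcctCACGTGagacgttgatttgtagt
They differ in their count of CG dinucleotides, which was 5 for Igf1, 42 for Igf1r, 26 for Igfbp7 and 21 for Igf2bp3, beside a median of 6 over all mouse promoters of this length. CACGTG, which reads the same on both strands, occurred 1 time before Igf2bp3 and 2 times before Igf2r, and 6.02% of the 32851 mouse promoters hold it. TATAAA, on either strand and with no overlap with CACGTG, occurred 1 time each before Igfbp4 and Igfbp6, and 12.4% of promoters hold it. Both motifs were picked after the sequences were seen, and nothing is drawn from them.

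The gene spans are those of the GENCODE annotation on GRCm38, with the gene identifiers of the deposited feature table. The ligand gene Igf1 (ENSMUSG00000020053) spans chr10:87858265-87937042 on the plus strand, so the RefSeq start used above lies inside it. The receptors are Igf1r (ENSMUSG00000005533), at chr7:67952827-68233668 on the plus strand, and Igf2r (ENSMUSG00000023830), at chr17:12682406-12769664 on the minus strand. Of the binding proteins, Igfbp3 (ENSMUSG00000020427) lies at chr11:7206086-7213923 on the minus strand, Igfbp4 (ENSMUSG00000017493) at chr11:99041244-99054392 on the plus strand and Igfbp5 (ENSMUSG00000026185) at chr1:72857932-72874884 on the minus strand. Igfbp6 (ENSMUSG00000023046) lies at chr15:102144362-102149511 on the plus strand and Igfbp7 (ENSMUSG00000036256) at chr5:77349240-77408041 on the minus strand. The IMP genes are Igf2bp2 (ENSMUSG00000033581), at chr16:22059009-22163299, and Igf2bp3 (ENSMUSG00000029814), at chr6:49085223-49214957, both on the minus strand. No gene overlaps a member on its own strand; Igf1os, Airn, Polr2b and Malsu1 are among the genes on the other strand of Igf1, Igf2r, Igfbp7 and Igf2bp3, and no source used here says whether the counting used strand.

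Igf1 had its highest levels in macrophages and fibroblasts. In macrophages it stood at 67.3 CPM in the library labelled Mertk KO P1 MI and 259 in that labelled Mertk KO P1 sham, at 246 in WT 8 week MI and 151 in WT 8 week sham, and at 392 and 169 in WT P1 MI and 291 in WT P1 sham. In fibroblasts the same libraries gave 107 and 132 for the pair labelled Mertk KO, 330 and 446 for WT 8 week MI and sham, and 192, 130 and 125 for WT P1 MI and sham. Macrophages were thus higher in 4 of the 7 libraries, and the log2 difference between macrophages and fibroblasts, 0.22 ± 0.34 (SE), did not pass the test (edgeR with library as a block, Benjamini-Hochberg adjusted p = 0.593). Endothelium stood lower, at 20.9 to 100 with a median of 76.4; the log2 difference was 1.84 ± 0.35 for macrophages against endothelium (edgeR adjusted p = 0.000113) and 1.62 ± 0.36 for fibroblasts against endothelium (adjusted p = 0.000608). Mural cells had the lowest median, at 12 to 39.0 in the 4 libraries that held enough of them. In WT 8 week sham their 39.0, on 15 UMIs, lay above the 20.9 of endothelium. The values of the library labelled Mertk KO P1 MI and of WT P1 sham rest on 1 and 4 UMIs. T cells had 0 to 1.44 Igf1 CPM in the 7 libraries, far below every macrophage and fibroblast value.

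**Figure D1:**
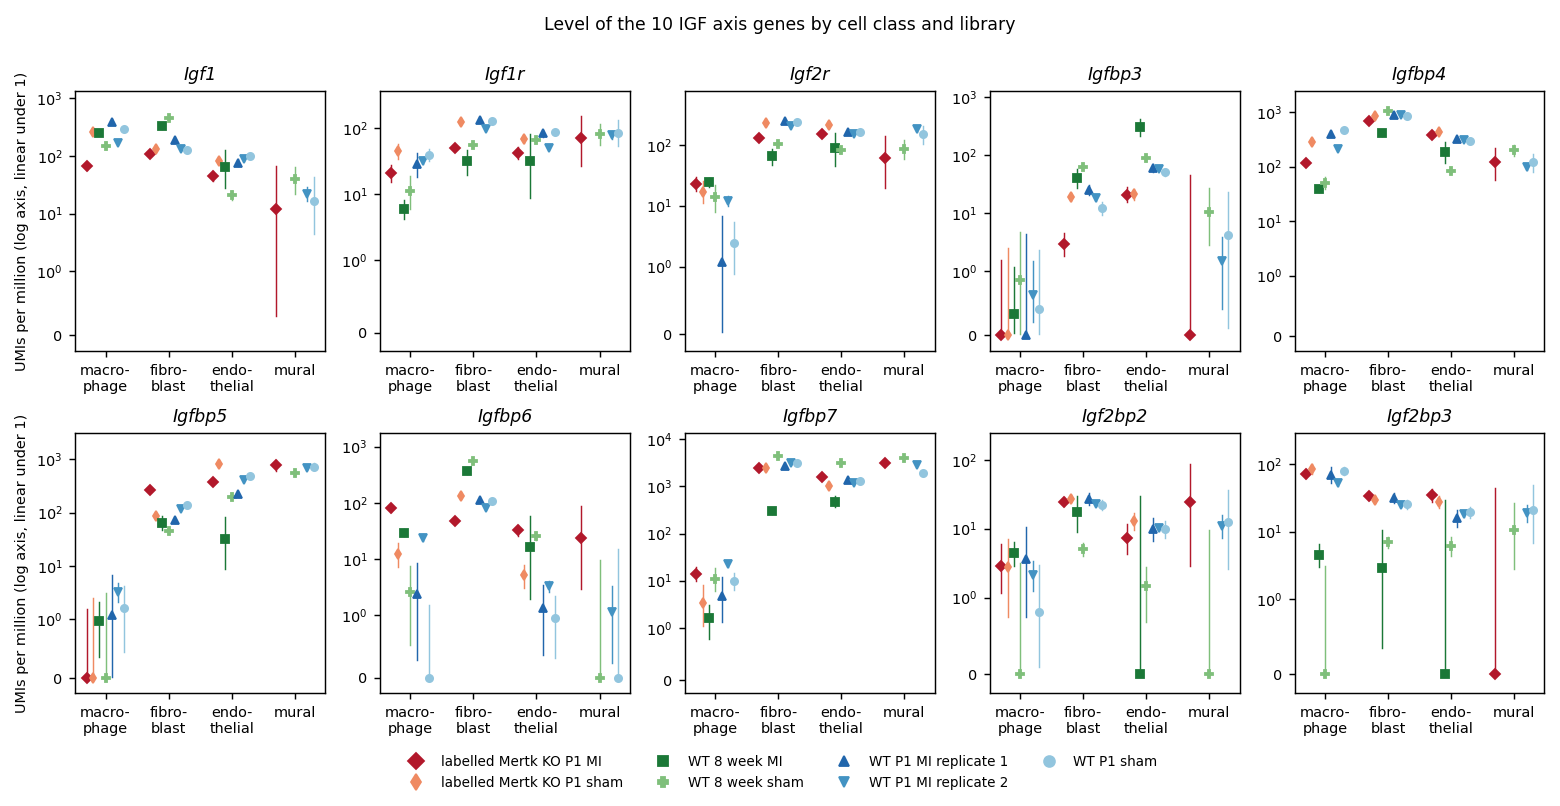
CPM of the 10 genes (vertical axes) in macrophages, fibroblasts, endothelium and mural cells (horizontal axis), 1 marker per library with its exact Poisson 95% interval, which covers counting error only. Igfbp7 is at 22.8 or less in macrophages and at 1899 or more in mural cells; Igf2bp3 is lower in both 8 week libraries than in the 5 P1 libraries in macrophages and fibroblasts.

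The class that held most of the Igf1 UMIs changed between libraries. Macrophages held 84.4% of all Igf1 UMIs in WT 8 week MI and 1.91% in WT 8 week sham, while fibroblasts held 12.8% and 84.4% in the same libraries. In the P1 libraries the macrophage share was 13.4% to 35.4% and the fibroblast share 36.0% to 59.9%. WT 8 week MI had 2539 macrophages and 163 fibroblasts, and WT 8 week sham 112 and 1498. The macrophage class leaves out an unnamed cavity-type cluster, led by Prg4 and Alox15. In WT 8 week sham that cluster held 856 cells and 1027 Igf1 UMIs, at 84.3 CPM, against 177 UMIs in the macrophage class. A share counts the cells captured as well as the level in each class, and CD45+ cells were enriched. The shares are thus no measure of the heart's own sources. The same holds for Igfbp7, of which fibroblasts held 69.2% to 83.3% in every library, and for Igfbp4 (45.3% to 87.7%).

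**Figure D2:**
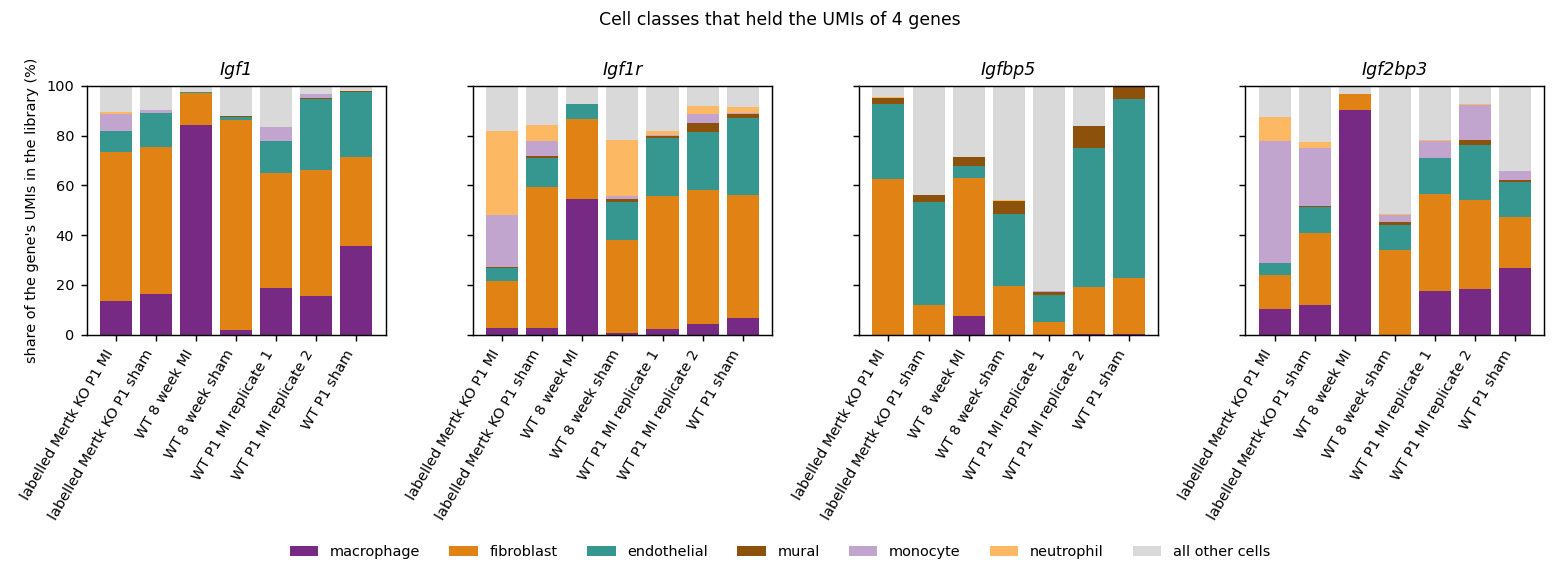
Share of a gene's UMIs in each library (vertical axis, %) held by each cell class (colours), for Igf1, Igf1r, Igfbp5 and Igf2bp3, with the 7 libraries along the horizontal axis. Fibroblasts held 84.4% of Igf1 in WT 8 week sham and macrophages 84.4% in WT 8 week MI.

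Within classes, Igf1 differed between clusters of the same library. The P1 macrophages lay mostly in a cluster led by Mrc1, Folr2 and C1qa, genes of resident macrophages, where Igf1 stood at 122 in the library labelled Mertk KO P1 MI and 340 in that labelled Mertk KO P1 sham, and at 472, 186 and 331 in WT P1 MI and sham. The macrophages of WT 8 week MI lay almost wholly (2400 of 2539 cells) in another cluster, led by Spp1 and Gpnmb, at 238. Among fibroblasts, the cluster led by Cthrc1, Timp1 and Col1a1, which are matrix genes of activated fibroblasts, had 96.0 and 196 in the libraries labelled Mertk KO P1 MI and sham, 368 and 630 in WT 8 week MI and sham, and 643 and 270 in WT P1 MI. The cluster led by Cd248 and Mfap5 stood at 15.5 to 64.1 in the 5 P1 libraries. In endothelium, the cluster with the endocardial marker Npr3 had 123 and 144 in the libraries labelled Mertk KO P1 MI and sham. It had 30.4 in WT 8 week sham, 163 in WT P1 MI replicate 2 and 211 in WT P1 sham. These values lay above the class as a whole in all 5. No test was made between clusters, since the clusters were built from the other genes of the same cells.

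**Figure D3:**
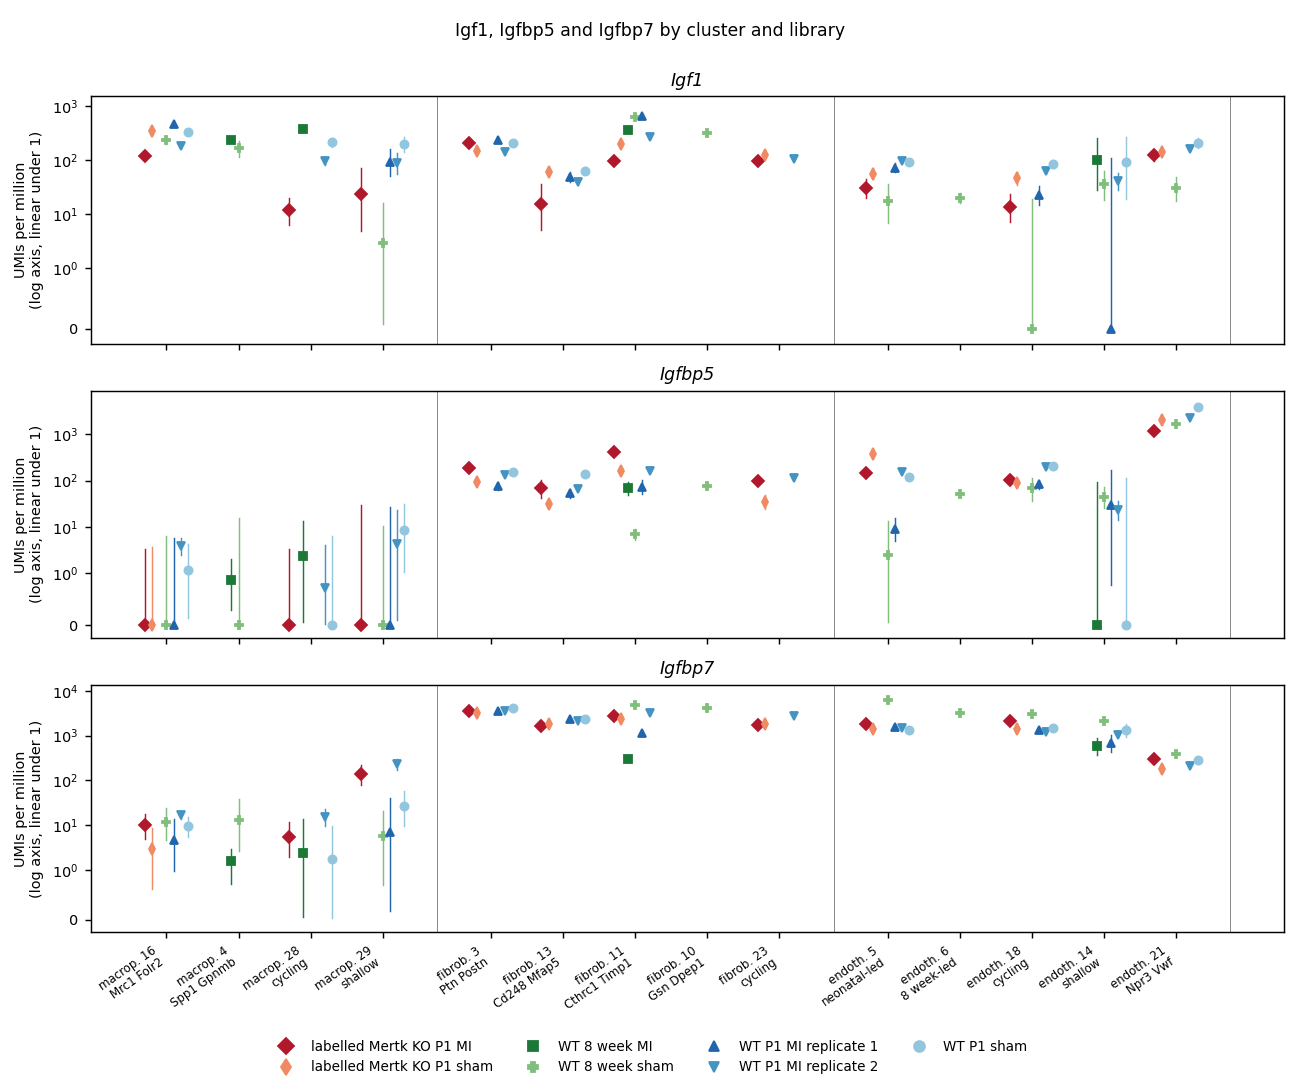
CPM of Igf1, Igfbp5 and Igfbp7 (vertical axes) in the clusters of 3 classes (horizontal axis), 1 marker per library with its exact Poisson 95% interval. Igfbp5 is high and Igfbp7 low in the endocardial cluster, where Igfbp5 stood at 1152 to 3913.

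Both receptors had their lowest class median in macrophages. Igf1r, the signalling receptor, stood at 20.8 and 45.0 in macrophages of the libraries labelled Mertk KO P1 MI and sham, 6.01 and 11.1 in WT 8 week MI and sham, and 28.7, 32.3 and 39.9 for WT P1 MI and sham. Fibroblasts had 50.2 and 125 in the pair labelled Mertk KO, 31.6 and 56.3 in the 8 week pair and 137, 97.2 and 128 in the WT P1 libraries, and macrophages were lower by 1.63 ± 0.16 log2 units (edgeR adjusted p = 1.91e-08). Endothelium lay at 32.3 to 88.0 and mural cells at 72.1 to 86.7; macrophages against endothelium gave a log2 difference of -0.98 ± 0.17 (adjusted p = 3.95e-05), just under the 2-fold size asked of a call. Igf2r, the clearance receptor, had 1.20 to 24.1 in macrophages, 64.7 to 243 in fibroblasts and 82.2 to 213 in endothelium, a log2 difference of -3.36 ± 0.45 between macrophages and fibroblasts. The 2 lowest macrophage values of Igf2r, 1.20 and 2.44 in WT P1 MI replicate 1 and WT P1 sham, rest on 1 and 6 UMIs.

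Among macrophages, fibroblasts, endothelium and mural cells, the binding proteins differed in the class with the highest level. This ranking does not cover clusters outside those classes. Of the 4 classes, Igfbp7, the weak IGF binder, was lowest in macrophages. Outside them, the Schwann cluster stood at 5406 in WT 8 week sham and 4785 in WT P1 MI replicate 2. Mural cells held 3161 in the library labelled Mertk KO P1 MI, 3968 in WT 8 week sham, 2842 in WT P1 MI replicate 2 and 1899 in WT P1 sham, and fibroblasts 295 to 4373, against 1.63 to 22.8 in macrophages. Macrophages against fibroblasts gave a log2 difference of -7.86 ± 0.31 (edgeR adjusted p = 2.53e-14), and their level overlapped that of T cells, 0 to 19.3, and B cells, 0 to 23.1. Fibroblasts against endothelium gave 1.00 ± 0.23 (adjusted p = 0.00098), just under the 2-fold size. Igfbp4, which inhibits IGF action until it is cleaved, was highest in fibroblasts at 411 to 1034.5, with 82.1 to 438 in endothelium and 39.0 to 476 in macrophages. Igfbp5 stood at 552 to 769 in mural cells, 32.3 to 809 in endothelium, 45.5 to 260 in fibroblasts and 0 to 3.25 in macrophages. Within endothelium it was concentrated in the endocardial cluster, at 1152, 2030, 1647, 2249 and 3913 in the libraries labelled Mertk KO P1 MI and sham, WT 8 week sham, WT P1 MI replicate 2 and WT P1 sham, while the vessel cluster led by Cldn5 had 147, 370, 2.47, 156 and 118. The 2.47 of WT 8 week sham is 1 UMI in 59 cells, and the cluster that held 1618 of that library's endothelial cells stood at 51.6 on 237 UMIs. Igfbp5 was itself among the leading genes of that endocardial cluster. Igfbp7 ran the other way in the same 5 libraries, at 295, 176, 399, 214 and 280 in the endocardial cluster and at 1787, 1387, 6169, 1469 and 1338 in the vessel cluster, with 3206 in the main endothelial cluster of WT 8 week sham.

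Among macrophages, fibroblasts, endothelium and mural cells, Igfbp3, the chief IGF carrier of blood, had its highest medians in endothelium and fibroblasts. It stood at 20.7 to 307 in endothelium and 2.94 to 62.8 in fibroblasts, with 0 to 0.854 in macrophages. Clusters outside those classes are not part of this ranking. Fibroblasts against endothelium gave a log2 difference of -1.32 ± 0.25 (edgeR adjusted p = 0.000137). Of the 4 classes, fibroblasts had the highest median of Igfbp6, which prefers IGF2 over IGF1, at 48.4 to 558. They were 4.82 ± 0.67 log2 units above endothelium. The mesothelial or epicardial cluster, outside the 4 classes, stood higher, at 478 and 2357 in the libraries labelled Mertk KO P1 MI and sham. It had 3572 in WT 8 week sham and 1576 and 2220 in WT P1 MI. Macrophages had 80.6 and 12.3 Igfbp6 CPM in the libraries labelled Mertk KO P1 MI and sham, 29.4 and 2.56 in WT 8 week MI and sham, and 2.39, 23.8 and 0 for WT P1 MI and sham. Neutrophil-like cells stood at 633 and 243 in the pair labelled Mertk KO and 325 in WT P1 MI replicate 2. These values lay above macrophages and above fibroblasts, which had 48.4, 131 and 81.8 there. Neutrophil-like cells lay below fibroblasts in WT 8 week sham (57.2 against 558), WT P1 MI replicate 1 (46.1 on 2 UMIs against 112) and WT P1 sham (0 against 109). The 12 neutrophil markers summed to 26082 CPM in macrophages of the library labelled Mertk KO P1 MI, where none was at 0, and to 22232 in WT P1 MI replicate 2, against 32.3 to 2045 in the other 5 libraries. Their part in the macrophage level of Igfbp6 was not tested.

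Igf2bp3 was lower in the 8 week libraries than in the P1 libraries in macrophages and fibroblasts. Beside Igf1 it was the member with its highest class median in macrophages: it stood at 71.9 and 84.6 in macrophages of the libraries labelled Mertk KO P1 MI and sham, at 4.55 and 0 in WT 8 week MI and sham, and at 69.3, 52.6 and 78.5 in WT P1 MI and sham. The 5 P1 libraries did not overlap the 8 week pair. Fibroblasts had 24.5 to 33.3 in the P1 libraries and 2.87 and 6.95 in 8 week MI and sham, and endothelium 15.9 to 34.6 in the P1 libraries and 6.08 in 8 week sham; with 0 of 123971 UMIs in 8 week MI endothelium, where 3 counts are 24.2 CPM, that library cannot be placed. Macrophages were above fibroblasts by 1.18 ± 0.26 log2 units (edgeR adjusted p = 0.000506) and above endothelium by 1.69 ± 0.28; without the cycling and shallow clusters the first difference was 0.985 and no longer a call. T cells, B cells and monocytes had it too, at 21.8 to 73.6 in the P1 libraries, against 3.30 to 6.77 in WT 8 week sham. Igf2bp2 was highest in fibroblasts, at 22.2 to 27.0 in the P1 libraries and 17.2 and 5.07 in 8 week MI and sham, with 0 to 12.7 in endothelium and 0 to 4.39 in macrophages.

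**Figure D4:**
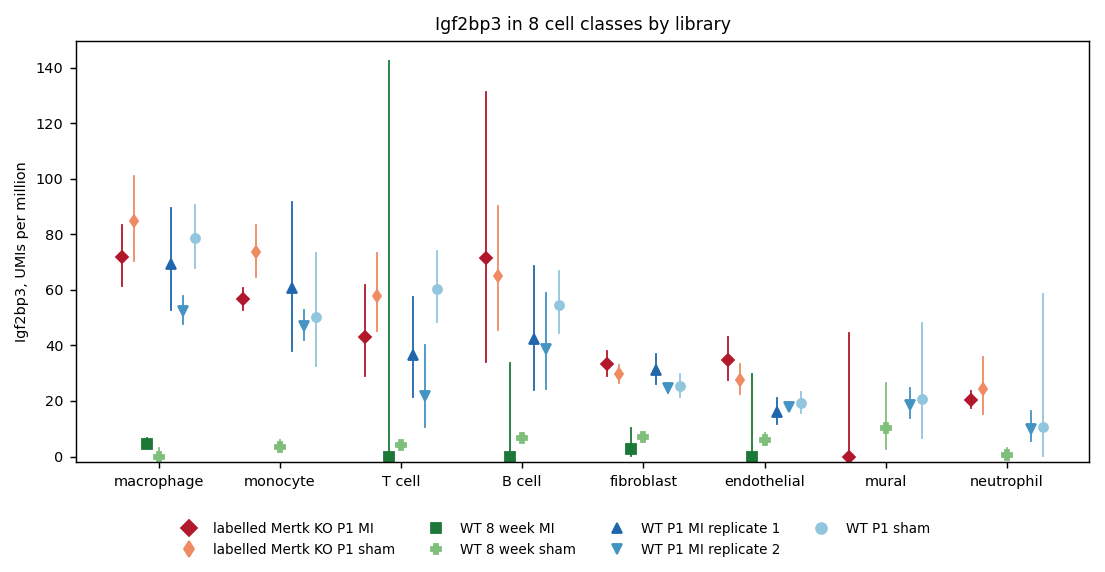
Igf2bp3 CPM (vertical axis) in 8 cell classes (horizontal axis), 1 marker per library with its exact Poisson 95% interval. Both WT 8 week libraries lie below the 5 P1 libraries in macrophages and fibroblasts; the library of 8 week MI has few endothelial, T and B cells, and its intervals there reach the P1 values.

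Across the 6 pairs of classes, 39 of the 60 differences of members passed an adjusted p of 0.05 and the 2-fold size. Macrophages against fibroblasts gave 9 of 10 (1 higher, Igf2bp3, and 8 lower), beside 41.5% of all genes tested; macrophages against endothelium 7 (beside 37.6%), macrophages against mural cells 9 (38.8%), fibroblasts against endothelium 6 (29.1%), fibroblasts against mural cells 6 (19.1%) and endothelium against mural cells 2, Igf1 and Igfbp3 (23.1%). An exact sign-flip permutation test over the libraries called none of the 60, since with 7 libraries its smallest p is 0.0156 and the smallest adjusted p was 0.0521. The classes were split by other genes of the same cells, and these counts describe where each transcript lay.

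Age was compared in infarcted hearts, WT 8 week MI against WT P1 MI. Of the 6 groups WT P1 MI alone had 2 libraries, so each lone library was assumed to vary like that pair. The labels do not say that the pair came from separate animals. P-values rest on how far these samples lie apart, and that distance may be technical. In fibroblasts and endothelium edgeR gave a gene's own distance no weight and used the spread shared over genes (infinite prior degrees of freedom). In macrophages the shared spread had 18.04 degrees of freedom, beside 1 of the gene's own. A call asked for an adjusted p under 0.05 (edgeR quasi-likelihood test, Benjamini-Hochberg over all genes tested in the class) and at least 2-fold. The macrophages compared lay in different clusters, that of Spp1 and Gpnmb in 8 week MI and that of Mrc1 and Folr2 in P1 MI. In macrophages 5 of the 8 members that passed the count filter were called, beside 17.6% of all genes; DESeq2 called 2, Igfbp4 and Igf2bp3, and gave no adjusted p for Igf1r, Igf2r and Igfbp7 (unadjusted p of 0.0485, 0.137 and 0.0821). Igf2bp3 stood at 4.55 in 8 week MI, against 69.3 and 52.6 in P1 MI, a log2 fold change of -3.33 ± 0.45 (SE; edgeR adjusted p = 8.97e-05). Igf1r fell by 2.01 ± 0.42 (edgeR adjusted p = 0.00328) and Igfbp4, at 39.0 in 8 week MI against 405 and 214 in P1 MI, fell by 2.57 ± 0.53 (adjusted p = 0.00296). Igfbp7 fell by 3.01 ± 0.75 on 10 UMIs in 8 week MI (adjusted p = 0.0104), and by 1.00 without WT P1 MI replicate 2. B cells, which should lack it, stood at 0 in 8 week MI and at 2.64 and 23 in P1 MI. In replicate 2, 55 of the 183 macrophage UMIs of Igfbp7 lay in a cycling and shallow cluster of 98 cells. It stood at 231 there, against 16.7 in the Mrc1 and Folr2 cluster. Whether the macrophage level is background was not tested. Igf2r rose by 1.72 ± 0.53 (adjusted p = 0.0321), at 24.1 in 8 week MI against 1.20 and 12 in P1 MI; without replicate 2 its log2 change was 4.56, and scaling by class totals alone, at 1.45, ended the call. Without the cycling and shallow clusters the 4 lower genes were no longer called, at log2 changes of -3.19 for Igf2bp3 (edgeR adjusted p = 0.0505), -2.08 for Igf1r (adjusted p = 0.0793), -2.72 for Igfbp4 (adjusted p = 0.0806) and -2.72 for Igfbp7 (adjusted p = 0.137). Igf1 was 246 in 8 week MI, inside the 392 and 169 of the P1 MI pair (0.24 ± 0.48, adjusted p = 0.768).

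In fibroblasts 5 of 10 members were called, beside 19.4% of all genes. These cells too lay in different clusters: that of Cthrc1 and Timp1 held 144 of the 163 fibroblasts of 8 week MI and 21 of 223 and 220 of 2917 in P1 MI, where the cluster of Ptn and Postn held 105 and 1927. Igfbp7 stood at 295 in 8 week MI on 205 UMIs, against 2652 and 3154 in P1 MI, and fell by 3.36 ± 0.76 log2 units (edgeR adjusted p = 0.0002). Both receptors fell: Igf1r by 1.92 ± 0.47 (edgeR adjusted p = 0.000634), at 31.6 in 8 week MI against 137 and 97.2 in P1 MI, and Igf2r by 1.84 ± 0.49 (adjusted p = 0.002), at 64.7 against 243 and 205. Igfbp6 rose by 1.87 ± 0.41 (adjusted p = 0.000126), at 364 in 8 week MI against 112 and 81.8 in P1 MI; in the Cthrc1 and Timp1 cluster alone it was 395 against 190 and 144. Igf2bp3 was called lower (adjusted p = 0.000295) on 2 UMIs in 8 week MI; the ratio was 0.114 with an exact counting interval of 0.0137 to 0.412, and DESeq2 gave an adjusted p of 0.0636. Igf1 stood at 330 in 8 week MI, above the 192 and 130 of P1 MI, with a log2 change of 1.00 ± 0.42 that did not pass the test (edgeR adjusted p = 0.0756); it was called with DESeq2 size factors, with class totals alone and with clusters built per library.

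In endothelium, where the library of 8 week MI had 60 cells, 3 of 10 members were called beside 4.28% of all genes. Igfbp3 stood at 307 in 8 week MI on 38 UMIs, with an interval of 217 to 421, against 59.5 and 57.9 in P1 MI, and rose by 2.04 ± 0.43 log2 units (edgeR adjusted p = 0.000261). Igfbp5 stood at 32.3 on 4 UMIs, against 224 and 412, and fell by 3.67 ± 0.77 (adjusted p = 0.000238; -3.07 without replicate 2). Igfbp7, at 476 against 1337 and 1177, fell by 1.74 ± 0.56 (adjusted p = 0.0474), a call that 5 alternatives ended. Of these 60 cells 36 lay in a shallow cluster, 11 in the Cldn5 cluster and 7 in the cycling cluster. P1 MI replicate 2 had 580, 1212 and 638 of 2691 there. In 8 week MI the shallow cluster gave 4 of the 38 Igfbp3 UMIs, at 102, so the rise rests mostly on the fewer other cells. Only 3 of the 60 lay in the endocardial cluster, which held much of the Igfbp5 in other libraries, and the erythroid markers summed to 9131 CPM in these cells, against 7.14 to 125 in the endothelium of the other libraries; the part of these in the changes was not tested. Igf2bp2 and Igf2bp3 had 0 UMIs in 8 week MI endothelium, and at 24.2 CPM the floor of 3 counts lies above their P1 level, so no fold is given. Over the members tested, the median log2 change was -0.88 in macrophages and -0.90 in fibroblasts, beside medians of all genes of -0.06 and -0.23; in endothelium, with 2 members at 0, the all-gene median was -0.59. Scaling by class totals alone put the all-gene medians at -0.41, -0.17 and -0.25, and with it macrophages had 501 genes called higher and 1643 lower, in place of 953 and 965.

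**Figure D5:**
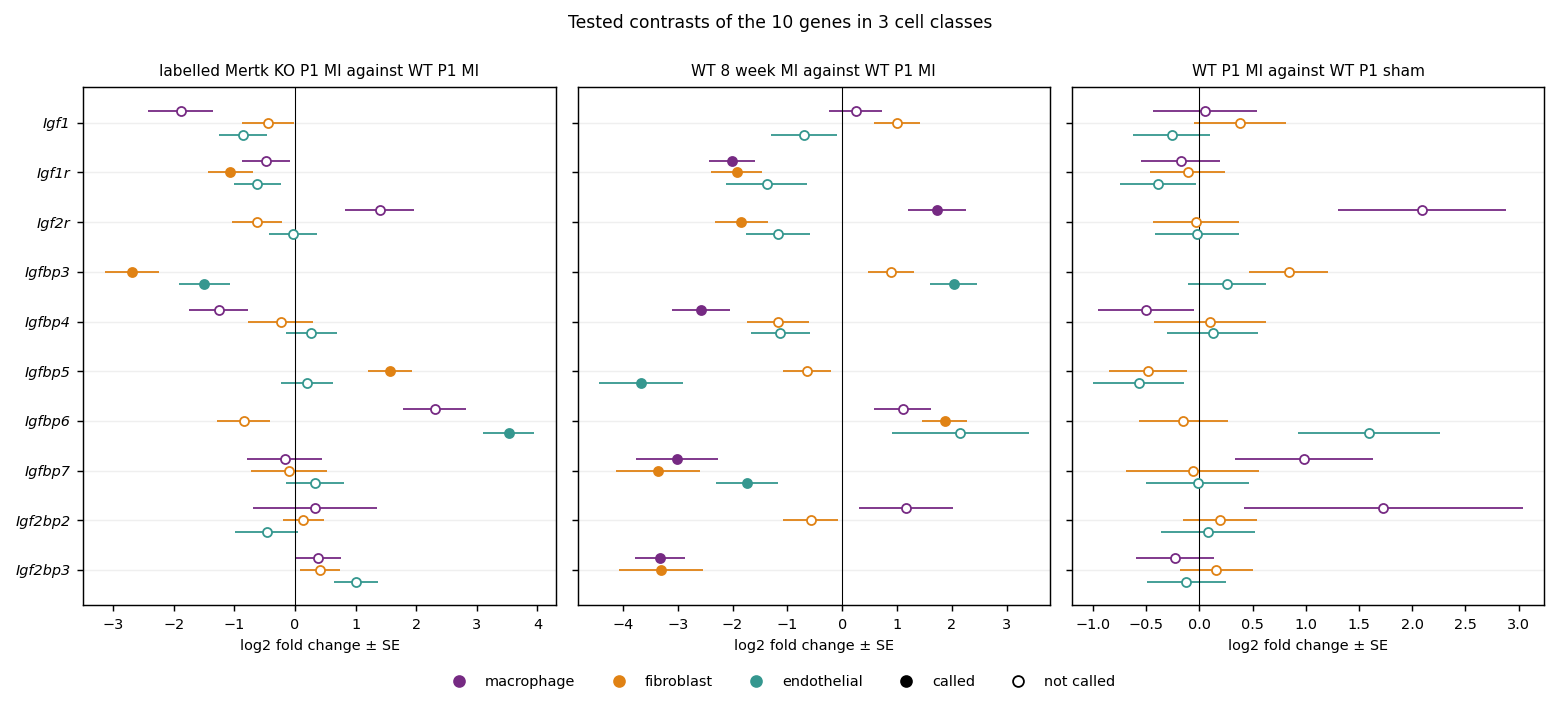
Log2 fold changes ± SE (horizontal axes) of the 10 genes (vertical axis) in macrophages, fibroblasts and endothelium for the 3 tested contrasts; filled points passed the test and open points did not. Genes that failed the count filter or had a lone library at 0 UMIs are not drawn. In WT 8 week MI against WT P1 MI, Igf1r, Igfbp7 and Igf2bp3 lie left of 0 in both macrophages and fibroblasts.

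Sham hearts gave the same age comparison with 1 library on each side, so it has no replicate check and no test. In fibroblasts of WT 8 week sham against WT P1 sham, Igf1 was 3.56-fold higher (446 and 125), Igfbp3 5.22-fold higher (62.8 and 12) and Igfbp6 5.12-fold higher (558 and 109). Igf1r (0.44-fold), Igf2r (0.447-fold), Igfbp5 (0.328-fold), Igf2bp2 (0.228-fold) and Igf2bp3 (0.275-fold) were lower. These are 8 of 10 members past 2-fold, beside 27.4% of all genes with enough UMIs in fibroblasts. In macrophages 4 of 6 were past 2-fold, beside 28.1%: Igfbp4 was 0.106-fold (50.4 in 8 week sham and 476 in P1 sham), Igf1r 0.278-fold, Igf2r 5.60-fold and Igf2bp3 at least 30.6-fold lower, with 0 UMIs in 8 week sham and 193 in P1 sham and the floor of 3 counts taken per library. Igf1 in macrophages was 0.519-fold, with the cavity-type cluster left out of the class. In endothelium 7 of 10 were past 2-fold, beside 23.2%: Igf1 was 0.208-fold, Igfbp4 0.275-fold, Igfbp5 0.400-fold, Igf2bp2 0.150-fold and Igf2bp3 0.318-fold, while Igfbp7 was 2.39-fold and Igfbp6 27.2-fold on 5 UMIs in P1 sham. Mural cells had 2 of 6 past 2-fold, Igf1 and Igfbp7, both higher, beside 27.6%. Most of the adult sham fibroblasts (1180 of 1498) and endothelium (1618 of 2102) lay in clusters with at most 5 cells of any other library, so cluster and library cannot be told apart there. The MI and the sham comparison of age share no library.

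Infarction was tested in WT hearts at P1, WT P1 MI against WT P1 sham. In macrophages 1 of 8 members tested was called, beside 0.57% of all genes: Igfbp6 had 193 UMIs in the P1 MI pair, 21.8 CPM pooled, and 0 of 2458659 UMIs in sham, at least 17.9-fold higher (edgeR adjusted p = 0.0229). DESeq2 gave it no adjusted p, and the fit without the cycling and shallow clusters did not call it; without replicate 2, whose neutrophil marker sum stands above, 2 UMIs remain and no fold is given. In fibroblasts 0 of 10 members were called by edgeR, beside 1.16% of all genes; Igfbp3 alone had an unadjusted p under 0.05, and DESeq2 called 0. In endothelium edgeR called 0 of 10 as well, beside 0.518%; Igfbp6 alone had an unadjusted p under 0.05, and DESeq2 called 0. Igf1 stood at 392 and 169 in P1 MI macrophages and at 291 in sham, so that the sham value lay between the pair. The median log2 change of the members tested was 0.52 in macrophages, 0.03 in fibroblasts and -0.02 in endothelium, beside all-gene medians of 0.03, 0.00 and 0.02. Igf1r in fibroblasts was likewise 137 and 97.2 in P1 MI and 128 in sham.

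Infarction at 8 weeks had 1 library per side and no test. In fibroblasts Igfbp7 stood at 295 in WT 8 week MI and 4373 in WT 8 week sham, 0.0673-fold, with a log2 interval for counting error of -4.10 to -3.69. Igfbp4 was 0.397-fold and Igf2bp2 3.40-fold, and the 3 past 2-fold stand beside 36.5% of all genes. In endothelium 5 of 9 were past 2-fold, beside 40.3%: Igfbp3 was 3.50-fold, Igf1 3.09-fold on 8 UMIs in MI, and Igfbp4 2.26-fold, while Igfbp5 was 0.165-fold and Igfbp7 0.154-fold. In macrophages 2 of 8 were shown past 2-fold: Igfbp7 was 0.146-fold, and Igfbp6 11.5-fold on 3 UMIs in sham, with a log2 interval of 1.95 to 5.81. Igf2bp2 and Igf2bp3, both at 0 in 8 week sham macrophages, were at least 1.71-fold and 1.78-fold higher in MI, bounds under 2-fold. With 0.5 counts added to both sides, as in the share of 32.9% over all genes, 4 of 8 were past it. Igf1 in macrophages was 1.63-fold, with a log2 interval of 0.48 to 0.94. The macrophage class leaves out the cavity-type cluster, where Igf1 stood at 84.3 in WT 8 week sham.

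The difference between the MI responses at the 2 ages was tested as an interaction in the same fits. Igfbp7 was called in fibroblasts, at -3.97 ± 1.03 log2 units (edgeR adjusted p = 0.00466), and in endothelium, at -2.97 ± 0.80 (adjusted p = 0.0206): its change with MI lay further down at 8 weeks than at P1, where it stood at 2652 and 3154 in MI and 3124 in sham fibroblasts. It was the single member called in each, beside 6.48% of all genes in fibroblasts and 1.35% in endothelium. The fibroblast cluster of Cthrc1 and Timp1 gave Igfbp7 at 297 in 8 week MI and 4787 in 8 week sham, against 1137 and 3134 in P1 MI; WT P1 sham had no cell there, so the interaction cannot be read within it. The endothelial interaction was lost with no count filter and with clusters built per library. In macrophages 0 of 8 were called by edgeR, beside 2.2%; Igfbp7 and Igf2bp3 had an unadjusted p under 0.05, and DESeq2 called 0 while giving no adjusted p for 5.

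The genotype labels were compared after infarction, in the library labelled Mertk KO P1 MI set against WT P1 MI. In fibroblasts 3 of 10 members were called, beside 10.6% of all genes. The Cthrc1 and Timp1 cluster held 261 of the 525 fibroblasts of the library labelled Mertk KO P1 MI and 21 of 223 and 220 of 2917 in WT P1 MI; the Ptn and Postn cluster held 128, against 105 and 1927. Xist stood at 46.8 CPM over all cells of the library labelled Mertk KO P1 MI, against 936 and 421 in WT P1 MI, so that genotype label and the mix of sexes cannot be told apart here. Igfbp3 stood at 2.94 on 20 UMIs in the library labelled Mertk KO P1 MI, against 25.3 and 17.8 in WT P1 MI, and fell by 2.69 ± 0.44 log2 units (edgeR adjusted p = 1.08e-07). Igfbp5 stood at 260, against 71.3 and 119, and rose by 1.57 ± 0.36 (edgeR adjusted p = 0.000359). It was 403 against 73.3 and 162 in the Cthrc1 and Timp1 cluster. In the Ptn and Postn cluster it was 190 against 76.6 and 131. In the Cd248 and Mfap5 cluster it was 68.2 on 22 UMIs, against 52.7 and 64.6. In the cycling fibroblast cluster it was 98.7, against 114 in WT P1 MI replicate 2. Igf1r stood at 50.2, against 137 and 97.2, and fell by 1.07 ± 0.37 (adjusted p = 0.04; 0.328 with DESeq2). The stricter cell filter ended all 3 calls, at -1.45, 0.94 and -0.88, and resolution 2 ended that of Igfbp5, at 0.13. In endothelium 2 of 10 were called, beside 4.19%: Igfbp3, at 20.7 against 59.5 and 57.9, fell by 1.49 ± 0.42 (edgeR adjusted p = 0.0143), and Igfbp6, at 32.9 against 1.35 and 3.27, rose by 3.53 ± 0.42 (adjusted p = 8.75e-15). DESeq2 did not call Igfbp6 there (adjusted p = 0.122), and without replicate 2 its log2 change was 4.53. DESeq2 did not call endothelial Igfbp3 either (adjusted p = 0.504).

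Cells of the library labelled Mertk KO P1 MI carried markers of other leukocytes. Neutrophil markers summed to 5640 CPM in its endothelium, where 2 of 12 (Elane and Mpo) were at 0, against 9.80 to 307 in the other libraries, and to 3136 in its fibroblasts, where none was at 0, against 6.67 to 210. The 10 monocyte markers summed to 11180 in its fibroblasts, against 841 to 1933 elsewhere. Igfbp6 stood at 633 in its neutrophil-like cells and 143 in its monocytes. The part of these in the endothelial Igfbp6 and the fibroblast changes was not tested.

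In macrophages edgeR called 0 of 8 members for the genotype labels, beside 0.432% of all genes; Igf1, Igf2r, Igfbp4 and Igfbp6 had an unadjusted p under 0.05, and DESeq2 called 0 while giving no adjusted p for 6. Igf1 had the lowest value of the 7 libraries there, at 67.3 in the library labelled Mertk KO P1 MI, against 392 and 169 in WT P1 MI (-1.88 ± 0.54, edgeR adjusted p = 0.153). Of the 209 macrophages of that library 74 lay in the cycling cluster, where Igf1 stood at 11.8, against 4 of 79 and 77 of 665 in WT P1 MI; in the Mrc1 and Folr2 cluster it was 122, against 472 and 186. Class totals alone (-2.05), no count filter (-1.89), resolution 2 (-2.33) and clusters built per library (-2.94) made it a call. Igfbp6 in macrophages changed by 2.30 ± 0.52 (adjusted p = 0.0527) and was called under 5 alternatives. Within the pair of libraries labelled Mertk KO, with no test, Igf1 in macrophages was 0.260-fold in MI against sham (log2 interval -2.22 to -1.67), Igf1r 0.461-fold, Igfbp4 0.404-fold and Igfbp6 6.56-fold, among 5 of 8 past 2-fold beside 19.9% of all genes. Fibroblasts of that pair had 4 of 10 past 2-fold, beside 18.3%: Igfbp5 was 3.01-fold, Igfbp3 0.156-fold, Igf1r 0.401-fold and Igfbp6 0.370-fold. Endothelium had 2 of 10, beside 12.8%: Igfbp6 was 6.44-fold and Igfbp5 0.455-fold.

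Sham hearts of the 2 genotype labels had 1 library each and no test. Against WT P1 sham, the library labelled Mertk KO P1 sham had 0 of 10 members past 2-fold in fibroblasts, beside 10.5% of all genes. In endothelium it had 2 of 10, beside 10.9%, with Igfbp3 at 0.423-fold and Igfbp6 at 5.38-fold on 5 UMIs in WT sham. In macrophages it had 3 of 7, beside 12.5%, with Igf2r at 6.99-fold on 6 UMIs in WT sham and Igfbp6 at least 10.1-fold higher. The interaction of MI and genotype label called Igfbp3 in fibroblasts, at -3.28 ± 0.61 log2 units (edgeR adjusted p = 2.21e-05), and Igfbp5, at 2.31 ± 0.57 (adjusted p = 0.00745), 2 of 10 beside 1.1% of all genes. DESeq2 gave adjusted p of 0.269 and 0.398 for these, and the stricter cell filter and resolution 2 ended both calls. In macrophages edgeR called 0 of 8 (beside 0.211%, with Igf1 and Igfbp6 at an unadjusted p under 0.05) and in endothelium 0 of 10 (beside 0.777%, with none at an unadjusted p under 0.05); DESeq2 called 0 in both, with no adjusted p for 2 of the macrophage genes.

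The other genes of the IGF axis were read from a list of 38 ligands, binding proteins, receptors, adaptors, proteases, signalling genes and targets, of which 22, 29 and 27 passed the count filter in macrophages, fibroblasts and endothelium. In WT 8 week MI against WT P1 MI, 1 rose and 3 fell in macrophages, 3 rose and 5 fell in fibroblasts and 0 rose and 4 fell in endothelium, beside the 17.6%, 19.4% and 4.28% of all genes called. DESeq2 called 0, 6 and 3 in the 3 classes, with no adjusted p for 17 of the 22 macrophage genes. In fibroblasts Pappa, the gene of an IGFBP protease, rose, at 76.2 in 8 week MI against 19.1 and 5.18 in P1 MI (2.79 ± 0.39, edgeR adjusted p = 8.68e-11), as did the metalloprotease gene Adam12, at 77.6 against 24.1 and 13.9 (2.04 ± 0.38, adjusted p = 2.06e-06). Hmga1, a chromatin protein, stood at 48.9 in 8 week MI fibroblasts against 4.29 and 1.59 in P1 MI, and at 54.3 against 28.7 and 13.4 in macrophages. Htra3, a secreted protease that cuts IGF binding proteins, fell in fibroblasts, at 84.8 against 437 and 334 (-2.23 ± 0.57, adjusted p = 0.00114). With 0 UMIs in 8 week MI, Htra1 was at least 2.38-fold lower in endothelium, Igf2bp1 at least 1.63-fold and Stc1 at least 1.10-fold lower in fibroblasts. Adamts1 in macrophages had 2 UMIs in 8 week MI, a ratio of 0.0373 with a counting interval of 0.00444 to 0.14. In WT P1 MI against sham Pappa rose in fibroblasts, at 19.1 and 5.18 in MI against 2.24 in sham (2.27 ± 0.49, edgeR adjusted p = 0.000727), while DESeq2 called none of the listed genes there. In the library labelled Mertk KO P1 MI set against WT P1 MI, Adam12, Igf2bp1 and Hmga2 rose and Igf2, Irs1 and Irs2 fell in fibroblasts by edgeR, while DESeq2 called none of the 29. EdgeR called 0 of the listed genes in macrophages (6 at an unadjusted p under 0.05) and 0 in endothelium (2), and DESeq2 called 0 in both.

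Igf2, the foetal ligand, stood at 0 UMIs in all 3 classes of WT 8 week MI, at least 49.5-fold lower than WT P1 MI in fibroblasts and 24.3-fold in endothelium, and in fibroblasts it was 68.6 in the library labelled Mertk KO P1 MI against 496 and 179 in WT P1 MI (-2.12 ± 0.47, edgeR adjusted p = 0.0002). H19 was 207 in fibroblasts of 8 week MI against 606 and 347 in P1 MI, and Grb10 145 against 169 and 129.

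Genes whose level followed that of a member most closely over the 25 class and library sums were ranked among 6428 genes by Pearson's r on log2 values; sums of 1 library share its depth and sums of 1 class its cells, so r is a description. Igf1 went with Adcy7 (r = 0.845), Man1a (0.824) and Scpep1 (0.807), and Igf1r with Raph1 (0.933), Clip1 (0.930) and Ctdsp2 (0.926). Igf2r was closest to Hdgfl3 (0.954), Igfbp3 to Cltb (0.922), Igfbp4 to Mir99ahg (0.923), Igfbp5 to Map1b (0.953) and Igfbp6 to Cilp (0.859). Igfbp7 was closest to Cavin3 (0.981), Igf2bp2 to Igsf3 (0.895) and Igf2bp3 to Ppp2ca (0.903).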

How the data were processed

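Single-cell libraries of 3' tagged transcripts were deposited by the authors as UMI counts per gene and cell barcode; per the file headers they came from Cell Ranger 4.0.0 in 5 libraries and 6.1.0 in WT 8 week sham and WT P1 MI replicate 2, and per the submitters' processing notes from the build mm10 (GRCm38). Which library had which chemistry is stated by no source used here.

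From these counts, barcodes with at least 500 UMIs, 300 genes and no more than 15% of UMIs from mitochondrial genes were used. Doublets were removed as the highest Scrublet scores, 0.8% per 1000 barcodes, since Scrublet's own threshold marked very uneven numbers. Cells were clustered jointly on 2000 variable genes without the members and the other IGF axis genes, with 30 principal components, 15 neighbours and Leiden resolution 1 (scanpy 1.11.5, leidenalg 0.10.2). Clusters were named from marker lists; a cluster had to detect 3 markers of its class, with a marker among its 25 leading genes, and 5 markers of another class left it unnamed. Counts were summed per class and library, with at least 20 cells, and fitted with edgeR 4.0.16 in R 4.3.3 (quasi-likelihood, TMM, all groups in 1 fit, 1 residual degree of freedom, no covariates). Class pairs were fitted with library as a block. A call asked for a Benjamini-Hochberg adjusted p under 0.05 over all genes of the class and a fold of at least 2. DESeq2 1.42.0 was an alternative. SE was taken as the log2 change over the square root of F. Comparisons with 1 library on each side are ratios with exact Poisson intervals at 95%, with no test; a count of 0 was set against a floor of 3 counts per library. Intervals and floors cover counting error only. The fits were tested on simulated data with known changes.

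Named were the 10 members, at most 10 called genes of the axis list by size of change, and 3 genes most like each member on log2(CPM + 10), of which the closest are printed. Members and lists were chosen with earlier results of these data known. The naming limits of 25 and 5, the genes shown in the plots of sources and clusters, the sums over classes and the cutoff for signals outside the 4 classes were set after levels were seen. Total UMIs per library ran from 7707724 to 130847843. Alternatives were DESeq2 and its size factors, class totals alone, no count filter, no doublet removal, a stricter cell filter (1000 UMIs, 500 genes, 10%), resolution 2, clusters built per library and leaving out each WT P1 MI library; adding an unnamed cavity-type cluster (led by Prg4 and Alox15) and leaving out cycling and shallow clusters or the endocardial cluster were chosen after seeing the data. Promoter sequences are from RefSeq on GRCm38.p6, and all 10 members matched by symbol.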

Additional observations from a re-analysis of the deposited data

Results flagged for a closer look

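Some results differed between ages or genotype labels by a test of the difference itself. The response to MI at 8 weeks minus that at P1 was called for Igfbp7 in fibroblasts, at -3.97 log2 units (edgeR adjusted p = 0.00466), and in endothelium, at -2.97 (adjusted p = 0.0206). This was 1 of 10 members in each class, beside 6.48% and 1.35% of all genes. The endothelial call was lost with no count filter and with clusters built per library. In fibroblasts the same difference was also called for 5 genes of the axis list, beside 6.48% of all genes. DESeq2 called 3 of the list, Htra1, Htra3 and H19. The secreted proteases Htra1 and Htra3 gave -2.24 (edgeR adjusted p = 0.00829) and -2.80 (adjusted p = 0.0102). The metalloprotease gene Adam12 gave 1.92 (adjusted p = 0.0146), the chromatin gene Hmga1 5.70 (adjusted p = 4.06e-07) and the imprinted non-coding gene H19 2.53 (adjusted p = 0.0119). In macrophages Hmga1 gave 5.36 (adjusted p = 0.0032), beside 2.2% of all genes, and DESeq2 called 0 of the list, with no adjusted p for 19 of 22. In fibroblasts Hmga1 stood at 48.9 CPM in 8 week MI and 1.25 in 8 week sham, against 4.29 and 1.59 in P1 MI and 3.79 in P1 sham.

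For the genotype labels, the MI response in the libraries labelled Mertk KO minus that in WT was called in fibroblasts for Igfbp3, at -3.28 (edgeR adjusted p = 2.21e-05), and Igfbp5, at 2.31 (adjusted p = 0.00745). These were 2 of 10 members, beside 1.1% of all genes, and DESeq2 called 0. The stricter cell filter and resolution 2 ended both calls. Xist stood at 46.8 and 765 CPM in the MI and sham libraries labelled Mertk KO, so MI and the mix of sexes cannot be told apart there.

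Signals outside the 4 classes, where an MI library lay well above its sham library, included these. Igf1 stood at 270 in monocytes of WT P1 MI replicate 1, against 1.93 in WT P1 sham, while replicate 2 had 19.5. Igf1 in B cells of WT 8 week MI was 27.4 on 3 UMIs, against 1.67 in WT 8 week sham. Igf1r stood at 115 in T cells of WT P1 MI replicate 1, against 21.9 in WT P1 sham, while replicate 2 had 56.8. Igfbp6 was 63.0 in monocytes of WT P1 MI replicate 2, against 1.93 in WT P1 sham, while replicate 1 had 19.3 on 7 UMIs. In neutrophil-like cells Igfbp6 was 633 in the library labelled Mertk KO P1 MI, against 243 in that labelled Mertk KO P1 sham, and 325 in WT P1 MI replicate 2, against 0 in WT P1 sham. In 28 cardiomyocyte-like cells of the library labelled Mertk KO P1 MI, Igfbp6 was 387 on 49 UMIs. It was 0 in that labelled Mertk KO P1 sham and 2.65 in WT P1 MI replicate 2. These signals have no test.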

How the results depend on the processing

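The number of members called, summed over macrophages, fibroblasts and endothelium, moved by more than 1.5 times under some settings. For WT P1 MI against WT P1 sham, 1 call became 0 with DESeq2 (which gave no adjusted p for macrophage Igfbp6) and 0 without cycling and shallow clusters, and 2 without doublet removal. For WT 8 week MI set against WT P1 MI, 13 became 5 without cycling and shallow clusters. For the genotype labels after MI, 5 became 2 with DESeq2, 2 with the stricter cell filter and 8 with clusters built per library. For the age interaction, 2 became 4 without doublet removal, 5 with the stricter filter, 6 at resolution 2, 4 with the cavity-type cluster and 1 without cycling and shallow clusters. For the genotype interaction, 2 became 0 with DESeq2, 0 with the stricter filter, 0 at resolution 2 and 1 without doublet removal. The 39 class-pair calls became 0 of 60 under the exact sign-flip permutation test, whose smallest adjusted p was 0.0521, and 33 with no library block. The causes were not tested. No paired analysis was possible because WT P1 MI alone carries 2 replicate numbers. Leaving out WT P1 MI replicate 1 or 2 leaves no residual degree of freedom for the group contrasts, which then give values with no test, and gave 36 to 38 class-pair calls. The scaling of fibroblasts in the genotype comparison also mattered: 807 genes were called higher and 649 lower, and 637 and 842 with class totals alone. In endothelium of 8 week MI set against P1 MI, 211 and 334 became 338 and 197 with class totals alone and 223 and 261 with DESeq2 size factors.

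Across single members 2117 values kept their direction and side of the threshold, 68 lost and 50 gained a call, 37 moved with no test and 58 changed sign. No called value changed sign under the alternatives run. For P1 MI against sham, the changed signs without doublet removal were endothelial Igf1 0.13, Igf2bp3 0.036, Igf2r 0.065 and Igfbp7 0.015, and macrophage Igf1 -0.053 and Igf1r 0.037. Without cycling and shallow clusters they were endothelial Igf1 0.087, Igf2bp3 0.017, Igf2r 0.046 and Igfbp7 0.098, and macrophage Igf1r 0.075. With clusters per library they were endothelial Igf2bp2 -0.16, Igf2bp3 0.070 and Igf2r 0.046, and fibroblast Igfbp7 0.18. The stricter filter gave endothelial Igf2bp3 0.047 and fibroblast Igf2r 0.0043 and Igfbp7 0.0017, no count filter fibroblast Igf2r 0.022 and endothelial Igfbp7 0.0065, resolution 2 endothelial Igf2bp3 0.010, and class totals macrophage Igf1 -0.065. For 8 week MI against P1 MI they were macrophage Igf1 -0.18 (class totals) and -0.097 (without cycling and shallow clusters), and fibroblast Igfbp3 -0.95 and Igfbp5 0.18 (stricter filter). For the genotype labels after MI, the stricter filter gave fibroblast Igf1 0.22, Igf2bp2 -0.66 and Igfbp7 0.00093, class totals Igf2bp2 -3.0e-05, and the fit without cycling and shallow clusters Igfbp7 0.049. In macrophages clusters per library gave Igf1r 0.38 and Igf2bp2 -0.016, and resolution 2 Igf2bp2 -1.01. In endothelium Igf2r was 0.0012 with DESeq2 size factors and 0.0012 with DESeq2, 0.018 without doublet removal and 0.039 at resolution 2, and Igfbp7 -0.18 without doublet removal and -0.047 without cycling and shallow clusters.

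For the age interaction they were macrophage Igf1r 0.44 (resolution 2) and Igfbp4 -0.070 (without cycling and shallow clusters), endothelial Igf2r 0.16 (class totals) and fibroblast Igfbp6 0.037 (per library). For the genotype interaction they were fibroblast Igf1 0.44, Igfbp6 0.29 and macrophage Igfbp4 0.35 (stricter filter), fibroblast Igf2bp2 0.11 and Igfbp7 -0.15 (resolution 2), fibroblast Igf2bp2 0.094 and macrophage Igf2r 0.23 (per library) and macrophage Igf2bp3 -0.23 (without cycling and shallow clusters). For endothelium against mural cells they were Igf2bp2 0.0066, Igf2bp3 -0.026 and Igfbp5 0.081 (no doublet removal), Igf2bp3 -0.037 and Igf2r -0.14 (stricter filter) and Igf2bp3 -0.068 (per library). Depth limits the endothelium of WT 8 week MI, where 3 counts are 24.2 CPM.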

Other observations

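Igf1r was also read in neutrophil-like cells, which lie outside the 4 classes described above. It stood there at 79.1 and 146 CPM in the libraries labelled Mertk KO P1 MI and sham, at 317 in WT 8 week sham, and at 323 and 116 in WT P1 MI and 357 in WT P1 sham, where the 323 rests on 14 UMIs. In each of these 6 libraries the value lay above those of macrophages, fibroblasts, endothelium and mural cells. Neutrophil-like cells held 33.9% of all Igf1r UMIs in the library labelled Mertk KO P1 MI and 22.7% in WT 8 week sham. Monocytes held 49.2% of the Igf2bp3 UMIs in the library labelled Mertk KO P1 MI.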
